A study of Mus musculus with 8 samples.

Results

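RSL3-treated mouse embryonic fibroblasts were compared with control fibroblasts by RNA sequencing, in 2 libraries of each group out of 8 in the series, and all 12618 genes tested of the 17910 in the count table are described. The cells were wild-type fibroblasts bought from a cell repository and grown in culture. RSL3 was given at 1 µM for 2 h. The labels name the other group only as control, with no vehicle given, and they do not say whether the libraries of a group came from separate cultures, so the p-values reflect variation among these particular libraries, and that variation may be purely technical. The other 4 libraries, of cells given 0.2 µM SRT1720 alone or 30 min before RSL3, entered only the estimate of the spread.

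RSL3 is a small molecule that inhibits GPX4, the selenium enzyme that reduces lipid hydroperoxides in membranes, and it is used to bring about ferroptosis, a form of cell death driven by lipid peroxidation. Early after such an insult cells are known to switch on stress programmes: heat shock factor and its chaperone genes, NRF2 and its antioxidant genes, and the integrated stress response, in which ATF4 raises genes of amino acid uptake and synthesis. Rapidly made and rapidly degraded messages, such as those of early response transcription factors, are the first to move in most settings of this kind.

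The libraries held between 20579122 and 21287620 counts in all 8 and between 20908830 and 21137819 in the 4 compared here. Levels are given in CPM, counts relative to the TMM-scaled library size, which are not corrected for gene length, and each gene's values are listed for RSL3 libraries 1 and 2 and then for control libraries 1 and 2. Differences are log2 fold changes, RSL3 minus control, ± SE from edgeR's quasi-likelihood fit, with p-values adjusted by Benjamini-Hochberg over the 12618 genes and a threshold of 0.05. Rose and fell are written of genes past that threshold. The fibroblast genes Col1a1, a collagen chain, and Vim, an intermediate filament, were abundant in all 4 libraries, with Col1a1 at 2429.6 and 2914 CPM in RSL3 libraries and 2520.0 and 3056 CPM in control libraries. Some defining markers of other cells were at or near 0: Ptprc of leukocytes and the endothelial Emcn and Tek were at most 0.0526 CPM and the muscle factors Myod1 and Myog had 0 counts in these 4 libraries, which allows up to 3 counts in each (0.129 to 0.158 CPM). Other genes on the marker lists were present, among them some not particular to 1 cell type. The lysosomal protein gene Cd68 of macrophages was at 13 and 9.28 CPM in RSL3 libraries and 3.69 and 2.79 CPM in control libraries. The intermediate filament gene Nes of neural precursors was at 151 and 166 CPM in RSL3 libraries and 236 and 215 CPM in control libraries. The endothelial Cdh5 was read at a low level, 1.79 and 0.791 CPM in RSL3 libraries and 1.37 and 0.575 CPM in control libraries. The endothelial Pecam1 was at 0.526 and 0.211 CPM in RSL3 libraries and 0.343 and 0.221 CPM in control libraries. The epithelial Krt19 was at 3.1 and 1.58 CPM in RSL3 libraries and 2.62 and 0.884 CPM in control libraries.

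At 2 h 2308 genes rose (18.3% of those tested) and 2203 fell (17.5%). By 2-fold or more 753 rose (5.97%) and 649 fell (5.14%), by 4-fold or more 270 rose and 109 fell, and by 16-fold or more 34 rose and 4 fell. The levels of the 4 libraries did not overlap between groups in 4508 of the 4511 genes called, a property that being called favours, and in 3500 of the 8107 genes not called (43.2%), or 63.5% of all genes tested. Genes that rose by 2-fold or more held 14% and 13.2% of all counts in RSL3 libraries, against 4.06% and 4.01% in control libraries, and genes that fell by 2-fold or more held 0.668% and 0.652%, against 2.09% and 1.94%. With library size only as the scaling, the median of all genes lay at -0.27 instead of 0.01 and the counts were 1220 up and 4675 down, so small differences of either sign depend on the scaling. Changes below are relative to the TMM-scaled median.

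**Figure D1:**
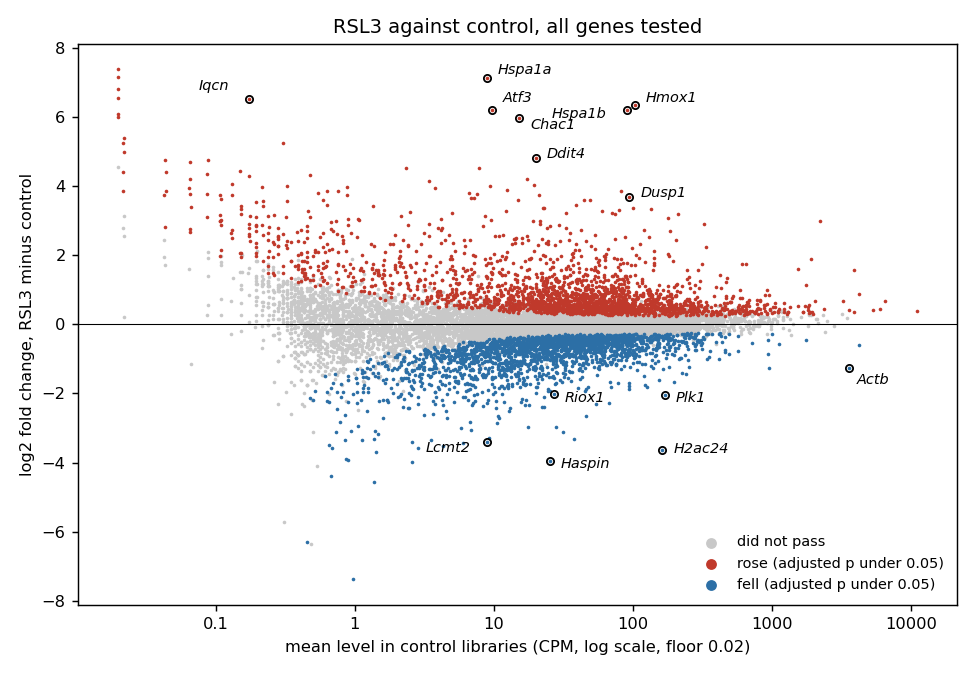
Log2 fold change (RSL3 minus control, vertical axis) against the mean level in control libraries (CPM, log axis) for the 12618 genes tested, with genes that rose in red, genes that fell in blue and the rest in grey. Hspa1a (7.13), Iqcn (6.51) and Atf3 (6.21) are among the highest points and Haspin (-3.96) and H2ac24 (-3.63) among the lowest. Genes at 0 in a group have fitted values that depend on a prior count.

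The shares that rose and fell varied with how abundant a message was in control cells, in classes parted at 1, 5, 20, 100 and 500 CPM. From 1 CPM up the share that rose increased at each step, over 10.5%, 13.7%, 20.6%, 23.4% and 44.9%. The share that fell was 15.1% between 1 and 5 CPM. From 5 CPM up it decreased at each step, over 24.9%, 20.4%, 12.8% and 4.45%. Of 247 genes at 500 CPM or more in control libraries 44.9% rose and 4.45% fell, whereas of 2694 genes between 5 and 20 CPM 13.7% rose and 24.9% fell. Of 1270 genes under 1 CPM 16.3% rose and 2.44% fell. Genes this low in control may have passed the low-count filter only through another group and had little room to fall. The shares of that class are thus shaped in part by the filter. The median at 500 CPM or more was 0.27. A difference of that size depends on the scaling, since with library size only the median of all genes moved from 0.01 to -0.27.

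Some genes were scarcely read in control cells and present after RSL3. Of the genes that rose, 193 were under 1 CPM in both control libraries, and 8 of these reached 5 CPM or more in both RSL3 libraries. Such genes may have entered the test only because another group was high. Those 8 were Iqcn, the solute carrier Slc23a3, the poly(A) polymerase Tent5c, the nuclear receptor Rora, the antiplasmin Serpinf2, the small GTPase Rasl11b, the immune checkpoint receptor Lag3 and the sperm calcium-binding protein Cabyr. Iqcn, whose protein carries calmodulin-binding IQ motifs, was at 18.4 and 14.3 CPM in RSL3 libraries and 0.215 and 0.133 CPM in control libraries (6.51 ± 0.31, adjusted p = 4.89e-07). Slc23a3 was at 9.93 and 9.43 CPM in RSL3 libraries and 0.386 and 0.575 CPM in control libraries (4.32 ± 0.26, adjusted p = 2.16e-06). In both genes the 2 groups were far apart with little spread within either. Gem, a small GTPase that inhibits calcium channels, had somewhat more counts in control cells, at 57.1 and 50.2 CPM in RSL3 libraries and 2.96 and 1.68 CPM in control libraries (4.52 ± 0.22, adjusted p = 5.54e-07). Conversely, 132 genes that fell were under 1 CPM in both RSL3 libraries, and 3 of them had been at 5 CPM or more in both control libraries, namely the tRNA-modifying Lcmt2, the zinc finger gene Zfp87 and the nuclear import gene Ranbp6.

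Counts of exactly 0 made the fitted change of 6 risen genes depend on the prior count. Among them was the tight junction gene Cldn11, at 1.26 and 0.685 CPM in RSL3 libraries and 0 in both control libraries. A count of 0 allowed 0.129 and 0.133 CPM in the control libraries. The endothelin-converting enzyme gene Ece2 was at 0.683 and 1.00 CPM in RSL3 libraries and 0 in both control libraries, and 5 of the 8 fits without 1 library ended its call (adjusted p of 0.0502 to 0.0805). The histone gene H4c1 was at 0.893 and 0.211 CPM in RSL3 libraries and 0 in both control libraries, and its call ended without either control library (adjusted p = 0.068 and 0.0614) or without the first RSL3 library (adjusted p = 0.107). Evi2 was read only in the first RSL3 library (1.31 CPM, 0 CPM in the second and in both control libraries), and its call rests on that library, since without it the fitted change was 0 (adjusted p = 1).

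**Figure D2:**
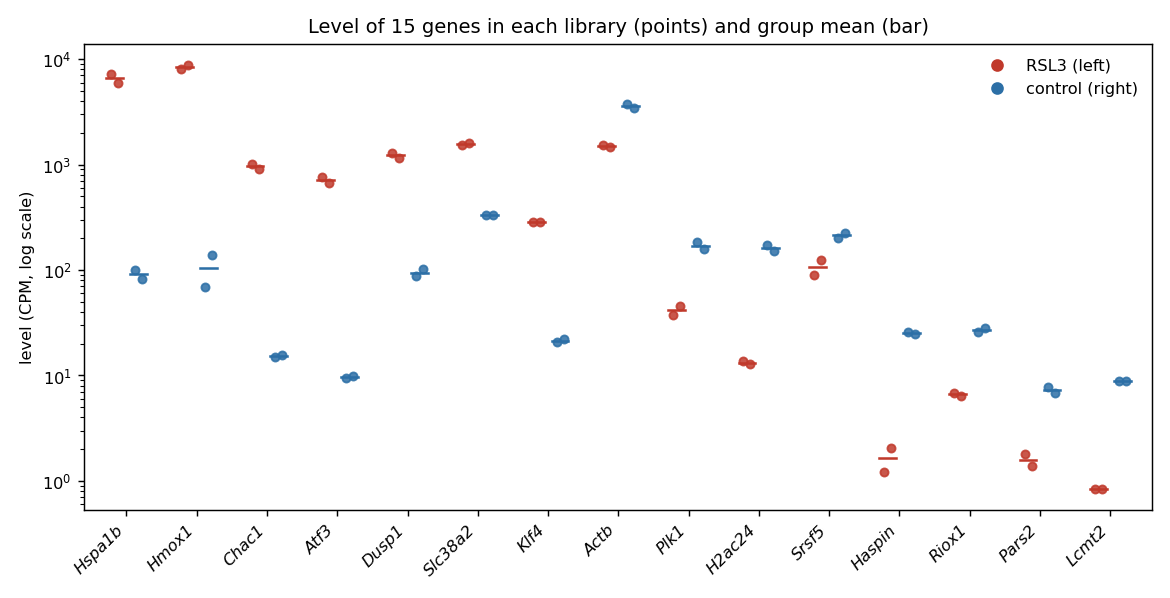
Level (CPM, log axis) of 15 genes in each library, RSL3 in red on the left and control in blue on the right of each gene, with bars at the group means. In these 15 genes both RSL3 libraries lie on one side of both control libraries, among them Lcmt2 at 0.841 and 0.843 CPM in RSL3 libraries and Hspa1b at 7286 and 5973 CPM.

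Transcription factors of the bZIP class, which bind DNA as pairs and include FOS, JUN, ATF and CEBP proteins, were among the genes that rose: 30 of 37 tested rose (81.1%, against 18.3% of all genes), 21 of them by 2-fold or more, with a median of 1.22. Atf3, a repressor and activator induced by many stresses, was at 763 and 665 CPM in RSL3 libraries and 9.44 and 9.91 CPM in control libraries (6.21 ± 0.12, adjusted p = 5.79e-09). Ddit3, the CEBP-like factor CHOP, was at 158 and 159.8 CPM in RSL3 libraries and 19.1 and 23.6 CPM in control libraries (2.90 ± 0.13, adjusted p = 3.4e-07). Neither gene overlapped between groups, and their pairs of libraries differed little. The FOS-type members Fosb (3.23), Fos (2.89), Fosl2 (1.90) and Fosl1 (1.06), the JUN-type members Jund (2.04), Junb (1.97) and Jun (1.58), the CEBP genes Cebpb (2.57), Cebpa (2.32) and Cebpg (1.29), and the small MAF genes Maff (2.17), Mafk (1.85) and Mafg (0.94) rose. So did Atf4 (1.33), Atf5 (1.39) and Nfe2l2 (0.96), which encodes NRF2.

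Early response genes of the EGR, NR4A and IER families rose in 19 of 22 cases (86.4%, against 18.3% of all genes). Their median was 1.89, and 2 fell (9.09%, against 17.5%). The orphan nuclear receptors Nr4a2 (3.94), Nr4a3 (3.59) and Nr4a1 (2.78) rose, and Nr4a3 was at 1.86 without the second RSL3 library. The zinc finger factor of the serum response Egr1 rose by 0.90, but its call ended when any 1 library was left out other than the second of RSL3 or the second of control, with a change of 0.43 without the first control library (adjusted p = 0.167) and 0.60 without the first RSL3 library (adjusted p = 0.181). DESeq2 did not call Egr1 either (adjusted p = 0.113). Arc, a synaptic plasticity gene that is also an early response gene outside neurons, was at 159.6 and 138 CPM in RSL3 libraries and 9.78 and 8.93 CPM in control libraries (3.99 ± 0.17, adjusted p = 2.89e-07). Ier3, an inhibitor of apoptosis under several stresses, was at 1251 and 1186 CPM in RSL3 libraries and 197 and 175 CPM in control libraries (2.71 ± 0.10, adjusted p = 1.04e-07). Srf, the factor that drives the serum response itself, was one of 2 members that fell (-0.89). It was at 127 and 128 CPM in RSL3 libraries and 249 and 223 CPM in control libraries (adjusted p = 9.55e-05).

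Among 17 Krüppel-like factors 10 rose (58.8%, against 18.3% of all genes) and 2 fell (11.8%, against 17.5%). Klf4, one of the pluripotency factors, was at 286 and 287 CPM in RSL3 libraries and 20.6 and 22 CPM in control libraries (3.75 ± 0.10, adjusted p = 2.68e-08). Klf9 (2.98), Klf11 (2.87), Klf2 (1.97), Klf6 (1.91) and Klf5 (1.66) rose as well, while Klf13 was one of the 2 that fell (-0.50). In the MYC network 5 of 12 genes rose (41.7%) and 1 fell (8.33%). With library size only 4 of them rose and 4 fell, and the median of 0.27 turned to -0.02. Mxd1, an antagonist of MYC that competes for MAX, was at 27.9 and 26.4 CPM in RSL3 libraries and 3.65 and 4.29 CPM in control libraries (2.77 ± 0.17, adjusted p = 3.07e-06), and the related Mxi1 (1.49) and Mnt (1.04) rose, whereas Mxd3 fell (-0.93). Myc itself did not pass, at 381 and 312 CPM in RSL3 libraries and 309 and 409 CPM in control libraries, where the groups overlapped.

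Genes of the circadian clock rose in 12 of 23 cases (52.2%, against 18.3% of all genes) and the other 11 did not pass. Their median was 0.70. Ciart, a repressor of the clock, was at 106 and 99.1 CPM in RSL3 libraries and 6.22 and 8.89 CPM in control libraries (3.76 ± 0.16, adjusted p = 2.7e-07). The repressors Bhlhe41 (2.45), Bhlhe40 (1.31), Per1 (1.59), Nr1d1 (1.52) and Nr1d2 (1.32) and the activators Rora (3.85) and Arntl (1.15) were among those that rose. Both limbs of the loop held genes that rose.

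Uptake and synthesis of amino acids made up another group. Of 22 amino acid transporters 14 rose (63.6%, against 18.3% of all genes) and the other 8 did not pass, with a median of 0.67. Of 22 enzymes of serine, asparagine, proline and one-carbon metabolism 13 rose (59.1%) and 1 fell (4.55%, against 17.5%). The median of these enzymes was 0.55. Slc38a2, a sodium-coupled carrier of neutral amino acids, was at 1532 and 1600.0 CPM in RSL3 libraries and 335 and 331 CPM in control libraries (2.23 ± 0.09, adjusted p = 1.78e-07). The glycine transporter Slc6a9 was at 135 and 108 CPM in RSL3 libraries and 18.1 and 26.2 CPM in control libraries (2.45 ± 0.18, adjusted p = 8.05e-06). The exchangers of the SLC7 family Slc7a11 (3.79) and Slc7a5 (1.04) and their heavy chain Slc3a2 (1.75) rose. So did Slc7a1 (1.91), of the same family. The alanine aminotransferase Gpt2 (1.5), the serine phosphatase Psph (1.15), the mitochondrial folate enzyme Mthfd2 (1.02) and asparagine synthetase Asns (1.00) also rose.

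Some genes that rose, Slc7a11 among them, carry the letters TGATGNAA shortly before their start. This is the composite element that ATF4 is known to bind with a CEBP partner. Stretches that hold it are shown for 6 genes that rose by 4-fold or more, reached 20 CPM after RSL3 and had the letters in the 250 bases before the start given by RefSeq (GRCm38.p6). A chromosome was left out of this search, so any such genes on it are not shown. The element on either strand is in capitals, and each sequence runs 5′ to 3′ on the strand of the gene.
Atf3: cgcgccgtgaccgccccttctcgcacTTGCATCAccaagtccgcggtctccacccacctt
Chac1: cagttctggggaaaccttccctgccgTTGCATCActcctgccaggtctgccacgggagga
Slc7a11: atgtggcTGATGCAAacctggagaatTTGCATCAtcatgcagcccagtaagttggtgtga
Herpud1: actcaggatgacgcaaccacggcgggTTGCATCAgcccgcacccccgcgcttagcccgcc
Nupr1: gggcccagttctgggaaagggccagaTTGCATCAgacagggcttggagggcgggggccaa
Arid5a: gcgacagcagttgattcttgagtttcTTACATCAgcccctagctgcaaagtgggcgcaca
The stretches lie at chr1:191183410-191183469 (minus strand) for Atf3, chr2:119351023-119351082 (plus) for Chac1, chr3:50443627-50443686 (minus) for Slc7a11, chr8:94386291-94386350 (plus) for Herpud1, chr7:126625547-126625606 (minus) for Nupr1 and chr1:36307543-36307602 (plus) for Arid5a. In Slc7a11 the element occurs in both orientations within 60 bases, and the Arid5a copy differs in letters from the others, at the position that may hold any base. Besides Atf3 and Slc7a11, Chac1, which breaks down glutathione, rose by 5.97, the endoplasmic reticulum degradation gene Herpud1 by 3.28, the stress-induced chromatin protein gene Nupr1 by 3 and the DNA-binding Arid5a by 2.56 on the log2 scale.

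A first promoter was given for 10099 of the 12618 genes tested (80%). Of the 219 promoters from 250 bases before to 50 after the start that hold TGATGNAA on either strand (2.17% of all), 25.6% belonged to genes that rose, against 18% of the promoters without it. The shares with and without were 23.6% and 18% for the AP-1 letters TGACTCA (3.53% of all promoters), 22.9% and 17.3% for TGACNNNGC, the core of the antioxidant response element (14.8% of all), and 25.2% and 17.4% for the E-box CACGTG (10.3% of all). The AP-1 letters and the antioxidant core can overlap in 1 stretch. For the heat shock letters GAANNTTC (5.53% of all) the shares were 17.9% and 18.2%, and for TTCNNGAA (6.61% of all) 16.9% and 18.3%. No test was made of these shares, and a match of letters is not a measured binding site. Among the genes that rose by 2-fold or more only 78.9% had a promoter in the table, under the 80% needed, so the share of that group with each motif is void and not given.

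Aminoacyl-tRNA synthetases, the enzymes that charge tRNAs with amino acids, parted by compartment. Of 20 cytosolic synthetases 9 rose (45%, against 18.3% of all genes) and the other 11 did not pass. Of 17 mitochondrial ones 10 fell (58.8%, against 17.5%) and the other 7 did not pass. The medians were 0.29 and -0.52, and with library size only 0.01 and -0.80. Aars, for alanine, was at 1104 and 1039 CPM in RSL3 libraries and 389 and 538 CPM in control libraries (1.21 ± 0.14, adjusted p = 0.000127), and Nars, for asparagine, followed at 1.05. Pars2, the mitochondrial prolyl enzyme, was at 1.79 and 1.37 CPM in RSL3 libraries and 7.85 and 6.81 CPM in control libraries (-2.21 ± 0.24, adjusted p = 0.000117). Mars2, its methionyl counterpart, was at 4.99 and 5.32 CPM in RSL3 libraries and 15.7 and 18.5 CPM in control libraries (-1.73 ± 0.15, adjusted p = 2.96e-05). The control libraries stood above the RSL3 libraries in both of these mitochondrial genes without overlap.

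**Figure D3:**
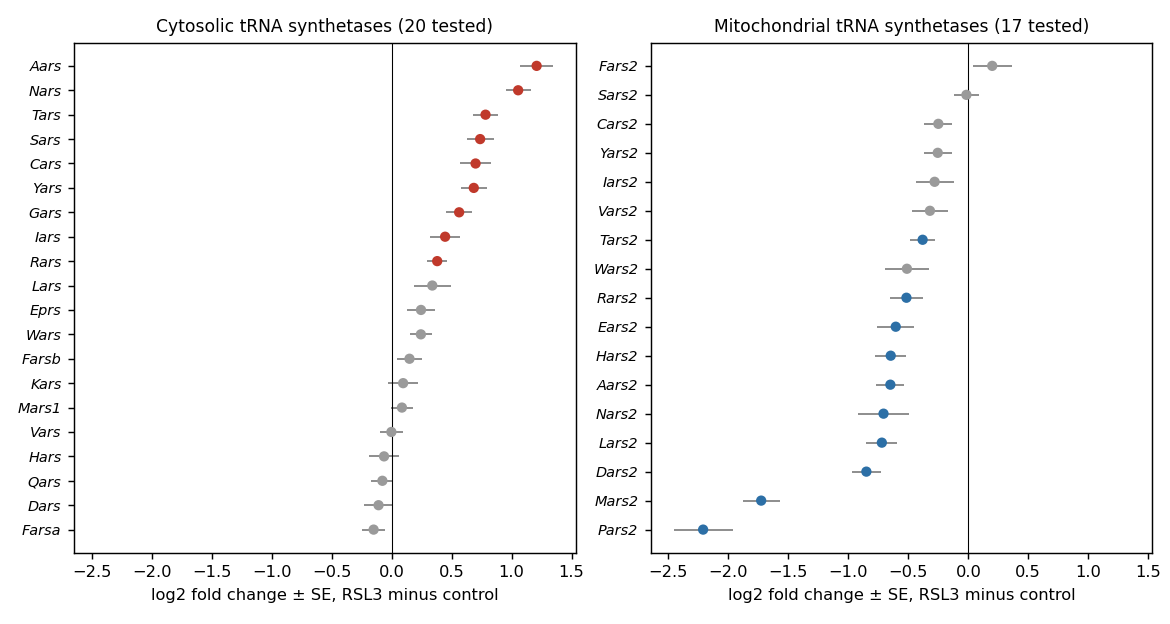
Log2 fold change ± SE (RSL3 minus control) of 20 cytosolic and 17 mitochondrial aminoacyl-tRNA synthetase genes, with genes that rose in red, genes that fell in blue and the rest in grey. Aars (1.21) and Nars (1.05) stand highest on the cytosolic side and Mars2 (-1.73) and Pars2 (-2.21) lowest on the mitochondrial side.

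Of 79 cytosolic ribosomal protein genes 51 rose (64.6%, against 18.3% of all genes) and the other 28 did not pass, within a range of 0.10 to 0.60 (median 0.35), but with library size only 0 of them passed in edgeR and the median was 0.07. Of 78 mitochondrial ribosomal protein genes 3 rose (3.85%) and 15 fell (19.2%, near the 17.5% of all genes), with a median of -0.11 and with Mrpl44 at 5.73 and 6.01 CPM in RSL3 libraries and 15.7 and 15.7 CPM in control libraries (-1.42 ± 0.15, adjusted p = 9.77e-05). Among 79 genes of ribosome biogenesis and RNA polymerase I 4 rose (5.06%) and 22 fell (27.8%), with a median of -0.14. They included Ppan (-1.31), Tsr1 (-1.26), the polymerase I subunit Polr1b (-0.90) and the assembly factor Rrs1 (-0.89), and the 2 largest falls were those of the mitochondrial ribosome helicase Ddx28 (-2.98) and the tRNA-modifying Trmt12 (-3.28). Of 78 nuclear-encoded subunits of the respiratory chain and ATP synthase 12 rose (15.4%, under the 18.3% of all genes), by 0.26 to 0.50, and the list's median of 0.14 turned to -0.14 with library size only. Ribosomal protein and some respiratory genes have many processed copies in the genome, so their counts are uncertain where reads could be divided.

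Among translation factors the repressor of cap-dependent initiation Eif4ebp1 was at 645 and 509.5 CPM in RSL3 libraries and 226 and 279.9 CPM in control libraries (1.19 ± 0.14, adjusted p = 0.000152). Its relative Eif4ebp2 fell (-0.57). Of 55 translation factors 10 rose (18.2%, against 18.3% of all genes) and 4 fell (7.27%, against 17.5%). The list's median of 0.11 turned to -0.17 with library size only. Of 26 kinases and regulators tied to stress signalling and mTORC1, 15 rose (57.7%) and 4 fell (15.4%), with a median of 0.69. Ddit4, an inhibitor of mTORC1, was at 583 and 542 CPM in RSL3 libraries and 22.1 and 17.8 CPM in control libraries (4.81 ± 0.13, adjusted p = 2.68e-08). The pseudokinase genes Trib3 (3.88) and Trib1 (0.84), the eIF2 phosphatase subunits Ppp1r15a (3.59) and Ppp1r15b (0.70), the leucine sensor Sesn2 (3.36), the GTPase Rragc (1.4) and the kinases Pim1 (2.51) and Sik1 (2.48) rose. The eIF2 kinase gene Eif2ak2 fell (-0.77).

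Chaperones moved by class. Of 24 genes of the HSP70 family and its exchange factors 13 rose (54.2%, against 18.3% of all genes) and 3 fell (12.5%, against 17.5%). Of 24 HSP90, small heat shock and mitochondrial chaperones 15 rose (62.5%) and the other 9 did not pass. Of 39 J-domain co-chaperones 9 rose (23.1%) and 7 fell (17.9%), near the shares of all genes. With library size only 7 of the J-domain genes rose and 19 fell. The chaperonin TRiC and prefoldin, which fold actin and tubulin, had 1 of 15 genes up and 1 down, within a range of -0.30 to 0.35. The small heat shock gene Hspb1 was at 2795 and 1017 CPM in RSL3 libraries and 253 and 167 CPM in control libraries (3.18 ± 0.40, adjusted p = 0.000237), and the co-chaperone Bag3 at 945 and 629 CPM in RSL3 libraries and 131 and 108 CPM in control libraries (2.72 ± 0.18, adjusted p = 4.3e-06). In both the first RSL3 library was higher than the second, and both lay above the control libraries. Without the first RSL3 library the change of Hspb1 was 2.25. Dnajb9, a co-chaperone of the endoplasmic reticulum, had the largest rise among J-domain genes, at 159.9 and 197 CPM in RSL3 libraries and 7.85 and 7.69 CPM in control libraries (4.52 ± 0.18, adjusted p = 1.78e-07). The mitochondrial Dnaja3 (-0.91), Dnajc11 (-0.70) and Dnajc30 (-0.93) and the exchange factor Grpel2 (-0.91) fell, while the mitochondrial chaperones Hspd1 (0.66) and Hspe1 (0.78) rose.

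Heat shock factor HSF1 is known to bind repeats of GAA and TTC. Of the genes on the 3 chaperone lists that rose by 4-fold or more and reached 20 CPM after RSL3, 11 in number, 10 had a promoter in the table. Of these 4 hold GAANNTTC or TTCNNGAA in the 250 bases before the start (RefSeq, GRCm38.p6), while Bag3, Dnaja4, Dnajb1, Dnajb4, Dnajb9 and Hspb8 hold neither. The 4 stretches are shown with those letters in capitals and 5′ to 3′ on the strand of the gene.
Hspa1a: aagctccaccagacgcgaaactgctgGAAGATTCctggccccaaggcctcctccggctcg
Hspa1b: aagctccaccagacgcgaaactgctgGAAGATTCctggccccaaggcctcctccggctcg
Hspb1: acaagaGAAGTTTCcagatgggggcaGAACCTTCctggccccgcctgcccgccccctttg
Hsph1: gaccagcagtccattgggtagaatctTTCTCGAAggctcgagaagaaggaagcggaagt
These lie at chr17:34972227-34972286 (minus strand) for Hspa1a, chr17:34959309-34959368 (minus) for Hspa1b, chr5:135887796-135887855 (plus) for Hspb1 and chr5:149636337-149636395 (minus) for Hsph1. The stretches of Hspa1a and Hspa1b are the same 60 letters, and the coding sequences of these neighbouring genes are nearly identical, so how reads were divided is uncertain for this pair. Their levels were 1176 and 1309.6 CPM (Hspa1a) and 7286 and 5973 CPM (Hspa1b) in RSL3 libraries, against 11.4 and 6.37 CPM (Hspa1a) and 99.6 and 82.3 CPM (Hspa1b) in control libraries. Hsph1, an HSP110 exchange factor, was at 1397 and 845 CPM in RSL3 libraries and 218 and 193 CPM in control libraries (2.45 ± 0.21, adjusted p = 2.64e-05).

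Genes of protein disposal rose at several points. Of 21 ubiquitin genes and stress-linked enzymes 10 rose (47.6%, against 18.3% of all genes) and 2 fell (9.52%, against 17.5%). Their median of 0.28 turned to -0.01 with library size only. The polyubiquitin gene Ubb was at 7703 and 6339 CPM in RSL3 libraries and 1933 and 1887 CPM in control libraries (1.88 ± 0.10, adjusted p = 1.53e-06), and the ubiquitin-binding stress genes Zfand2a (3.18) and Zfand5 (2.02) rose. Of 49 proteasome genes 14 rose (28.6%) and 1 fell (2.04%), all within -0.45 to 0.68. With library size only 3 of them rose and 5 fell, and the median of 0.20 turned to -0.08. Of 39 autophagy genes 20 rose (51.3%) and 3 fell (7.69%), with a median of 0.50. The cargo receptor Sqstm1 was at 2422 and 2464 CPM in RSL3 libraries and 307 and 345 CPM in control libraries (2.91 ± 0.10, adjusted p = 6.94e-08). The lipid kinase subunit Atg14 (2.31), the folliculin partners Fnip1 (1.90) and Fnip2 (1.47) with Flcn itself (1.26), and the ATG8 genes Gabarapl1 (1.81), Map1lc3b (1.38), Gabarap (0.81) and Gabarapl2 (0.51) were among those that rose.

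Hmox1, the heme oxygenase that frees iron from heme, had the largest rise among the redox and metal genes described here, at 8018 and 8768 CPM in RSL3 libraries and 68.9 and 139 CPM in control libraries (6.34 ± 0.30, adjusted p = 4.89e-07). The control libraries differed from each other, and without the second one the change of Hmox1 was 6.93. Of 36 genes of heme, iron storage and iron transport 9 rose (25%, against 18.3% of all genes) and 4 fell (11.1%, against 17.5%), and the median of 0.12 turned to -0.17 with library size only. The ferritin light chain gene Ftl1, whose product stores iron, was at 4294 and 3338 CPM in RSL3 libraries and 1975 and 1517 CPM in control libraries (1.13 ± 0.16, adjusted p = 0.000445); it has processed copies that make its count uncertain. Of 18 zinc transporter and metallothionein genes 6 rose (33.3%) and 4 fell (22.2%), and the median of 0.03 turned to -0.26 with library size only. The metallothionein gene Mt1, whose product binds zinc and copper, was at 1679.7 and 1067 CPM in RSL3 libraries and 139 and 133 CPM in control libraries (3.34 ± 0.21, adjusted p = 2.79e-06). Its neighbour Mt2 was at 1029.8 and 543 CPM in RSL3 libraries and 87.5 and 70.2 CPM in control libraries (3.32 ± 0.28, adjusted p = 1.98e-05). In both metallothionein genes the first RSL3 library was higher than the second, and both lay far above the control libraries.

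Of 19 genes of glutathione synthesis, recycling and breakdown 6 rose (31.6%, against 18.3% of all genes) and the other 13 did not pass. Scaling by library size only moved the median to 0, against 0.29. Chac1 was at 1015 and 908 CPM in RSL3 libraries and 14.8 and 15.7 CPM in control libraries (5.97 ± 0.13, adjusted p = 5.79e-09), and Gclc (1.92) and Gclm (1.35), the subunits of the first enzyme of glutathione synthesis, rose. Of 24 thioredoxin and peroxiredoxin genes 8 rose (33.3%) and 2 fell (8.33%, against 17.5%). With library size only 4 of them rose and 5 fell, and the median of 0.20 turned to -0.09. Sulfiredoxin Srxn1 was at 482 and 538 CPM in RSL3 libraries and 83.9 and 92.9 CPM in control libraries (2.53 ± 0.10, adjusted p = 1.8e-07). Thioredoxin reductase Txnrd1 rose by 1.25. Gch1, which makes tetrahydrobiopterin, a lipid radical trap, was at 12.7 and 7.85 CPM in RSL3 libraries and 5.62 and 2.83 CPM in control libraries (1.28 ± 0.33, adjusted p = 0.0127). The change of Gch1 was 0.87 both without the first RSL3 library (adjusted p = 0.0681) and without the second control library (adjusted p = 0.0622). Gpx4, the target of RSL3, did not pass, at 410.4 and 337 CPM in RSL3 libraries and 327 and 285 CPM in control libraries (0.29 ± 0.12, adjusted p = 0.0907). It passed upward without the second RSL3 library (0.42, adjusted p = 0.0195) and with a replicate block on the 4 libraries alone (0.27, adjusted p = 0.00587). RSL3 acts on the protein, so this level is no check of the treatment.

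Of 18 glycolytic enzyme genes 15 rose (83.3%, against 18.3% of all genes) and the other 3 did not pass (median 0.68). Those that rose ran from hexokinase Hk2 (2.16) and Gpi1 (0.76) over Pfkl (0.88), Aldoa (0.84), Tpi1 (0.64), Gapdh (0.67), Pgk1 (1.00), Pgam1 (0.69) and Eno1 (0.68) to Pkm (0.67) and Ldha (0.99), of which Gapdh has many processed copies that make its count uncertain. Hk2 was at 142 and 200.3 CPM in RSL3 libraries and 38.1 and 38.7 CPM in control libraries (adjusted p = 8.22e-06). Ldha, which makes lactate, was at 1892 and 1805 CPM in RSL3 libraries and 903 and 951 CPM in control libraries (adjusted p = 3.46e-05). Both genes were higher in each RSL3 library than in either control library. Of 15 pentose phosphate and NADPH genes 4 rose (26.7%, against 18.3% of all genes) and 3 fell (20%, against 17.5%). Among those that fell was H6pd (-0.80), which feeds NADPH to the endoplasmic reticulum.

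Of 32 genes of the HIF pathway, which answers to low oxygen, 22 rose (68.8%, against 18.3% of all genes) and 1 fell (3.12%, against 17.5%). Their median was 0.95. The stress-induced Ndrg1 was at 582 and 489 CPM in RSL3 libraries and 48.5 and 41.0 CPM in control libraries (3.58 ± 0.13, adjusted p = 8.63e-08). The oxygen sensor genes Egln1 (0.96) and Egln3 (0.94) rose and Hif1an, which hydroxylates HIF, fell (-0.72). Oxygen- and iron-dependent histone demethylases of the JmjC class overlapped with this list. Of 24, 10 rose (41.7%, against 18.3% of all genes) and 4 fell (16.7%, near the 17.5% of all genes). With library size only 8 of them rose and 9 fell, and the median of 0.26 turned to -0.02. Kdm3a was at 192 and 239.8 CPM in RSL3 libraries and 28.4 and 30.6 CPM in control libraries (2.87 ± 0.14, adjusted p = 5.12e-07), and Jmjd1c (1.93), Kdm6b (1.73), Kdm7a (1.41), Kdm6a (1.4) and Jmjd6 (1.18) rose. Riox1, a ribosomal oxygenase of the same class, was at 6.89 and 6.43 CPM in RSL3 libraries and 26.1 and 28.2 CPM in control libraries (-2.03 ± 0.13, adjusted p = 3.23e-06).

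Genes that act on messenger RNA moved in both directions. Of 39 mRNA decay factors 13 rose (33.3%, against 18.3% of all genes) and 2 fell (5.13%, against 17.5%). With library size only 9 of them rose and 12 fell, and the median of 0.13 turned to -0.16. Zfp36, which brings messages with AU-rich elements to decay, was at 326 and 313 CPM in RSL3 libraries and 17.6 and 16.9 CPM in control libraries (4.21 ± 0.12, adjusted p = 2.81e-08). The deadenylase recruiters Btg2 (3.01), Tob2 (2.33), Btg1 (2.19) and Tob1 (1.97), the ZFP36 relative Zfp36l1 (1.78) and the stem-loop binder Rc3h1 (1.46) rose. Among 26 SR splicing factors and the kinases that phosphorylate them 7 rose (26.9%, against 18.3% of all genes) and 8 fell (30.8%, against 17.5%). The kinases Clk1 (1.45), Clk4 (0.87) and Clk3 (0.57) rose, whereas the splicing factor genes Srsf5 (-0.99), Srsf6 (-0.72) and Srsf9 (-0.44) fell and Srsf2 rose (0.45). Clk1 was at 111 and 137 CPM in RSL3 libraries and 49.7 and 41.4 CPM in control libraries (adjusted p = 3.12e-05). Srsf5 was at 90.5 and 124 CPM in RSL3 libraries and 202 and 225 CPM in control libraries (adjusted p = 0.000453).

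Under TMM scaling the cell cycle lists differed by stage. Of 59 mitotic kinase, spindle and kinetochore genes 43 fell (72.9%, against 17.5% of all genes) and 2 rose (3.39%, against 18.3%). Their median was -0.68. Of 43 genes of the MCM helicase and replication licensing 14 rose (32.6%) and 1 fell (2.33%), with a median of 0.14. With library size only that median turned to -0.15, and 5 of the licensing genes rose and 12 fell. With the same scaling 1 of the mitotic genes rose and 50 fell. Plk1, the polo kinase of mitotic entry, was at 37.4 and 45.4 CPM in RSL3 libraries and 184 and 158 CPM in control libraries (-2.04 ± 0.14, adjusted p = 4.33e-06). The spindle motor Kif14 was at 6.04 and 6.90 CPM in RSL3 libraries and 21.9 and 27.2 CPM in control libraries (-1.92 ± 0.16, adjusted p = 2.01e-05). The F-box cyclin Ccnf (-1.50), the kinetochore motor Cenpe (-1.15), the cytokinesis genes Kif23 (-1.15) and Ect2 (-1.03) and cyclin B1 (Ccnb1, -0.86) fell too, and Dsn1 (0.68) and Cenpn (0.44) rose.

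On the side of replication, the licensing factor Cdt1 was at 379.9 and 298 CPM in RSL3 libraries and 166 and 144 CPM in control libraries (1.13 ± 0.13, adjusted p = 0.00012). Orc1 (1.18) and Cdc6 (1.06), which load the helicase, Mcm10 (1.00) and Pcna (0.73), the sliding clamp, rose. Of 29 G1 cyclins, kinases and inhibitors 12 rose (41.4%, against 18.3% of all genes) and 9 fell (31%, against 17.5%). With library size only 5 of them rose and 10 fell, and the median of 0.17 turned to -0.11. The inhibitors Cdkn1a (3.21) and Cdkn1b (0.94) and the activators E2f2 (1.64) and E2f3 (0.99) rose, and cyclin D1 (Ccnd1, -1.42) and E2f5 (-0.76) fell. Ccnd1 was at 87.8 and 81.2 CPM in RSL3 libraries and 245 and 205 CPM in control libraries (adjusted p = 1.11e-05). In these bulk samples fewer cells of a stage and less RNA per cell cannot be told apart.

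Of 49 genes of DNA repair helicases, the Fanconi pathway and recombination 16 fell (32.7%, against 17.5% of all genes) and 2 rose (4.08%, against 18.3%). Their median was -0.26. The helicase Pif1 was at 3.05 and 4.22 CPM in RSL3 libraries and 32.8 and 30.6 CPM in control libraries (-3.12 ± 0.19, adjusted p = 2.79e-06), and Fancf (-1.54), Palb2 (-1.53), Ercc4 (-1.07) and Xrcc2 (-1.04) fell, while Brca1 rose (0.82). Of 30 histone genes 6 rose (20%, against 18.3% of all genes) and 4 fell (13.3%, against 17.5%). H2ac24, a replication-type H2A gene, was at 13.6 and 12.8 CPM in RSL3 libraries and 173 and 153 CPM in control libraries (-3.63 ± 0.14, adjusted p = 1.8e-07), and H3c15 (2.70) and H2ac18 (2.35), at control means of 0.694 and 0.830 CPM, rose. Replication-type histone genes are near-copies of each other and their messages mostly lack a poly(A) tail, so their counts in these poly(A) libraries are uncertain.

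BCL2 family and caspase genes moved toward both sides. Of 33 tested 7 rose (21.2%, against 18.3% of all genes) and 11 fell (33.3%, against 17.5%). The BH3-only genes, whose products start mitochondrial death, included Bbc3 at 32.1 and 25.2 CPM in RSL3 libraries and 8.63 and 5.93 CPM in control libraries (1.97 ± 0.19, adjusted p = 4.78e-05), Pmaip1 at 18.9 and 19.8 CPM in RSL3 libraries and 4.76 and 5.09 CPM in control libraries (1.97 ± 0.15, adjusted p = 1.04e-05), and Bcl2l11 (1.72). The BH3-only gene Hrk was at 1.31 and 0.791 CPM in RSL3 libraries and 0 and 0.0884 CPM in control libraries, too few counts in control for a fold. The protective Mcl1 rose (0.86), and the inhibitors of apoptosis Birc3 (-1.48) and Birc2 (-0.95) fell. Of the caspases, Casp6 fell (-0.60).

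Feedback inhibitors of growth signalling rose in 16 of 39 cases (41%, against 18.3% of all genes) and 4 fell (10.3%, against 17.5%). With library size only 12 of them rose and 10 fell. Dusp1, a phosphatase that shuts off stress kinases, was at 1277 and 1162 CPM in RSL3 libraries and 87.2 and 102 CPM in control libraries (3.69 ± 0.12, adjusted p = 6.94e-08), and Dusp4 at 205 and 157 CPM in RSL3 libraries and 15.5 and 14.5 CPM in control libraries (3.60 ± 0.15, adjusted p = 2.01e-07). Dusp8 (1.8), Dusp10 (1.61), Dusp5 (1.47) and Dusp16 (1.26) rose. Dusp6, the cytoplasmic phosphatase of ERK, went the other way, at 19.8 and 15.5 CPM in RSL3 libraries and 34.0 and 39.3 CPM in control libraries (-1.05 ± 0.14, adjusted p = 0.000279). The control libraries of Dusp6 lay above both RSL3 libraries.

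Of 30 growth factor ligand genes 11 rose (36.7%, against 18.3% of all genes) and 2 fell (6.67%, against 17.5%). With library size only 10 of them rose and 7 fell. Vegfa, the endothelial growth factor, was at 931 and 1136 CPM in RSL3 libraries and 103 and 96.4 CPM in control libraries (3.37 ± 0.12, adjusted p = 8.63e-08). The cytokine Clcf1 (2.26) and the neurotrophic Gdnf (1.24) rose, while Pdgfb, a platelet-derived growth factor chain, fell (-1.51). Fgf21, a hormone made under ER and amino acid stress, was at 2.00 and 1.69 CPM in RSL3 libraries and 0.0429 and 0.0884 CPM in control libraries, again with too few counts in control for a fold. Of 11 EGF receptor family genes 4 rose (36.4%), among them the ligands Areg (2.60), Hbegf (1.89) and Ereg (1.43), and the receptor Erbb2 fell (-0.53). Hbegf was at 289.9 and 321 CPM in RSL3 libraries and 72.8 and 91.9 CPM in control libraries (adjusted p = 5.42e-06).

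In the TGF-beta, BMP and WNT families 15 of 48 genes rose (31.2%, against 18.3% of all genes) and 3 fell (6.25%, against 17.5%). With library size only 8 of them rose and 8 fell. The inhibitors Tgif1 (2.02), Smad7 (1.78) and Skil (1.27) rose with the ligands Wnt11 (1.88) and Bmp4 (1.58), and the activin subunit Inhbb fell, at 3.47 and 4.06 CPM in RSL3 libraries and 18.2 and 16.1 CPM in control libraries (-2.19 ± 0.17, adjusted p = 1.31e-05). Among 29 cytokine and chemokine genes of fibroblasts 4 rose (13.8%, against 18.3% of all genes) and 3 fell (10.3%, against 17.5%). Il1rl1, the receptor of IL-33, was at 2038 and 2073 CPM in RSL3 libraries and 613 and 611 CPM in control libraries (1.75 ± 0.09, adjusted p = 8.56e-07). The cytokine gene Il11 (3.14) and the prostaglandin enzyme Ptgs2 (3.08) rose, and the chemokine gene Cxcl12 (-0.99) and the macrophage growth factor Csf1 (-0.58) fell.

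Interferon-stimulated genes were lower where they passed: 18 of 44 fell (40.9%, against 17.5% of all genes) and the other 26 did not pass (median -0.54). Irf1, a transcription factor of the interferon response, was at 14.9 and 12.1 CPM in RSL3 libraries and 56.6 and 38.3 CPM in control libraries (-1.81 ± 0.18, adjusted p = 6.75e-05). The antiviral Ifit1 was at 0.999 and 1.95 CPM in RSL3 libraries and 9.23 and 5.00 CPM in control libraries (-2.27 ± 0.36, adjusted p = 0.000921). The ubiquitin ligase Dtx3l (-1.70) and the ADP-ribosyltransferase Parp14 (-1.58) fell as well. The first control library was higher than the second in Irf1 and Ifit1, and both control libraries were above the RSL3 libraries.

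In the cytoskeleton the cytoplasmic actin genes fell and several tubulin genes rose. Actb, the cytoplasmic beta-actin often used to normalise, was at 1539.9 and 1483 CPM in RSL3 libraries and 3773 and 3432 CPM in control libraries (-1.25 ± 0.09, adjusted p = 7.65e-06), and Actg1 (-0.59) and the adhesion protein gene Vcl (-0.61) fell too. Of 36 actin and SRF-MRTF genes 7 fell (19.4%, near the 17.5% of all genes) and 3 rose (8.33%, against 18.3%). Of 16 tubulin genes 7 rose (43.8%), among them Tubb2a (1.31) and Tuba4a (1.26), and 2 fell (12.5%). With library size only 6 of them rose and 5 fell, and the median of 0.19 turned to -0.09. Rhob, an early response GTPase, was at 806 and 679 CPM in RSL3 libraries and 139 and 120.5 CPM in control libraries (2.51 ± 0.12, adjusted p = 4.89e-07). At the cell surface and in the matrix, the protease gene Adamts1 rose (3.21, and 2.57 without the second RSL3 library). The plasminogen activator Plat (1.38) and the urokinase receptor Plaur (0.99) rose, Vcam1 fell (-0.80), and 23 of 26 collagen genes did not pass.

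**Figure D4:**
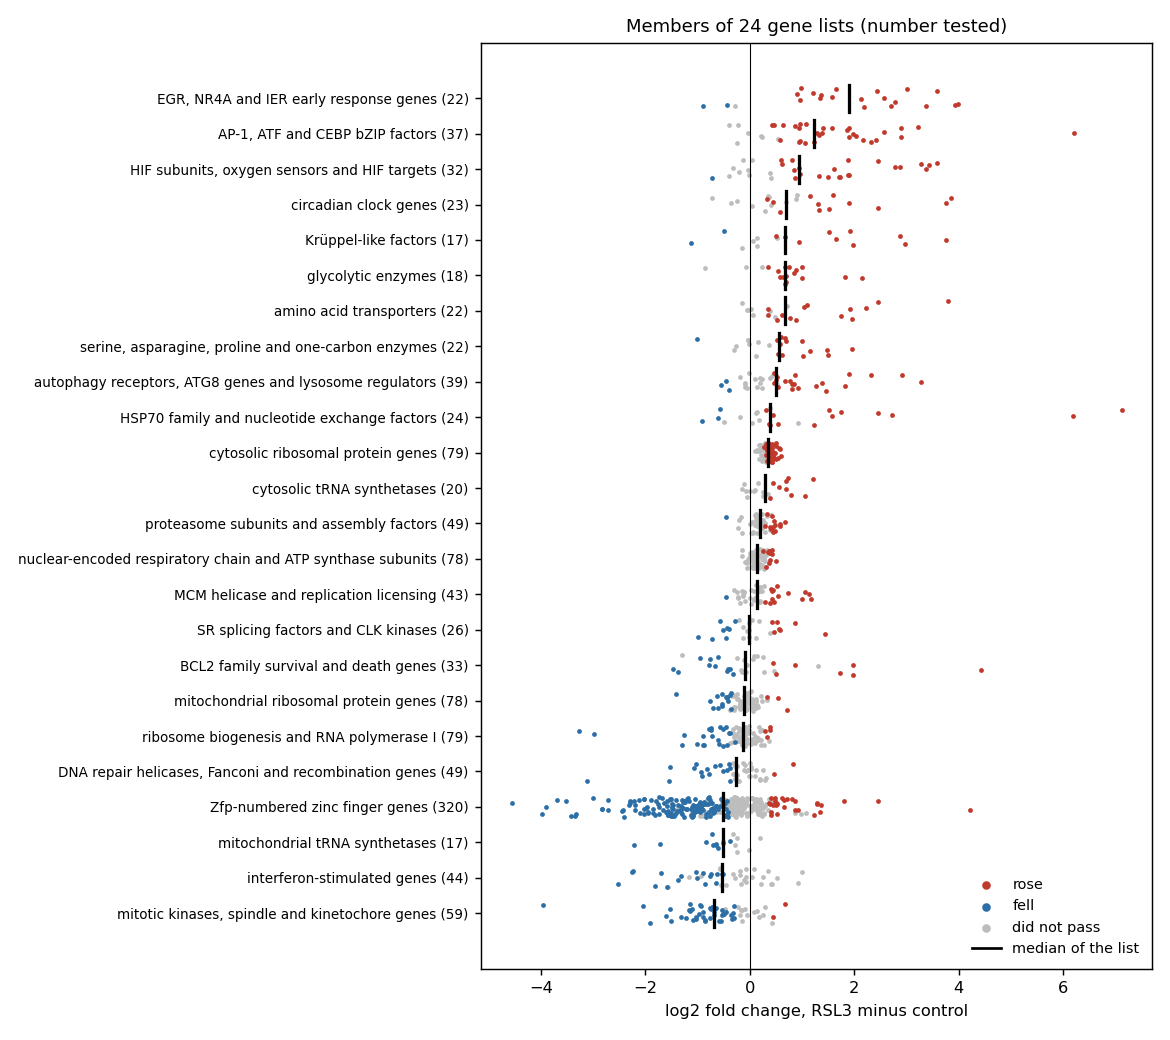
Log2 fold change (RSL3 minus control) of each tested member of 24 gene lists, ordered by the list's median (black bar), with genes that rose in red, genes that fell in blue and the rest in grey. Medians run from 1.89 for early response genes to -0.68 for mitotic genes. With library size only all values shift by about -0.27.

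Zinc finger genes with numbered Zfp symbols, many of which encode DNA-binding repressors, are a large family, and by share mitotic genes (72.9%) and mitochondrial tRNA synthetases (58.8%) fell more often. Of 320 Zfp genes tested 148 fell (46.2%, against 17.5% of all genes) and 28 rose (8.75%, against 18.3%), with a median of -0.52, and 102 fell by 2-fold or more. Zfp87 was at 0.893 and 0.527 CPM in RSL3 libraries and 5.62 and 5.93 CPM in control libraries (-3.01 ± 0.25, adjusted p = 1.95e-05), and Zfp39 at 0.893 and 1.00 CPM in RSL3 libraries and 7.34 and 6.15 CPM in control libraries (-2.82 ± 0.24, adjusted p = 2.35e-05). The exceptions that rose included the mRNA decay factor Zfp36, whose finger is of another type, Zfp367 (2.45) and Zfp703 (1.81). Many Zfp genes are close relatives in sequence, so counts of single members are uncertain where reads could be divided.

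Gene structure, which played no part in the choice of genes, differed between those that fell and the rest. Of the 12618 genes tested 12328 (97.7%) had a coding transcript in GENCODE vM21 (GRCm38). Among 699 genes whose coding sequence lies in 1 exon 35.3% fell, against 21.2% of those with 2 coding exons, 16% with 6 to 10 and 12.8% with 21 or more, while the share that rose was 19.5%, 22.3%, 18.6% and 14%. Without Zfp genes 34.8% of 670 genes with 1 coding exon fell, and 15.7% of the 11340 others. Of the 104 genes with a structure that fell by 4-fold or more, 36.5% had 1 coding exon and 76.9% had at least 70% of the coding sequence in 1 exon. Over all genes these shares were 5.67% and 12.8%, and over the 266 that rose by 4-fold or more 16.2% and 26.3%. Genes that rose strongly thus also held more such structures than all genes, but fewer than those that fell. The comparison was chosen after the data were seen and has no test.

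**Figure D5:**
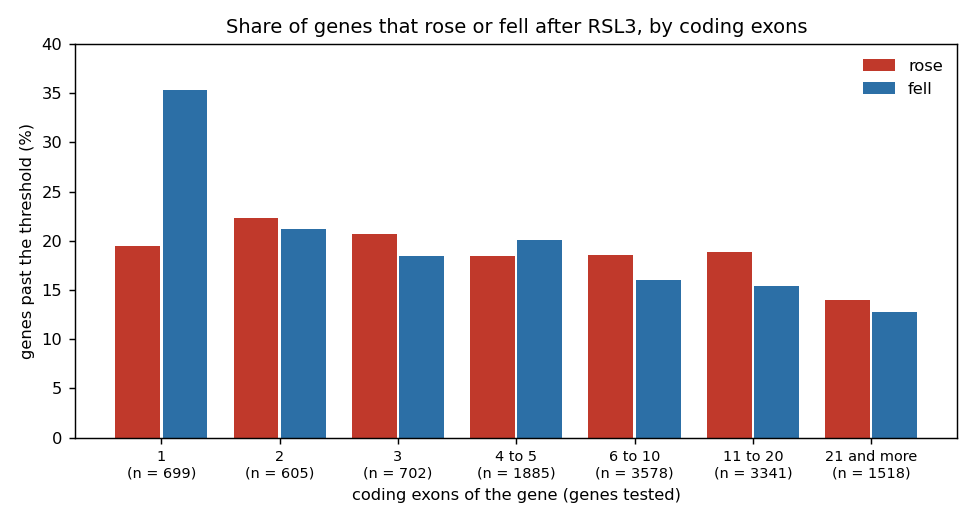
Share of genes (%) that rose (red) or fell (blue) after RSL3 by the number of exons that carry coding sequence, with the number of genes tested under each pair of bars. The share that fell is 35.3% at 1 coding exon and 12.8% at 21 or more.

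Of the 10 largest falls among named genes 7 had 1 coding exon. Haspin, a histone kinase of mitosis whose gene lies within an intron of another gene, was at 1.21 and 2.06 CPM in RSL3 libraries and 25.8 and 25.0 CPM in control libraries (-3.96 ± 0.20, adjusted p = 7.48e-07). Lcmt2, which modifies tRNA, was at 0.841 and 0.843 CPM in RSL3 libraries and 8.93 and 8.89 CPM in control libraries (-3.39 ± 0.22, adjusted p = 3.98e-06). The sulfotransferase Chst12 was at 3.10 and 4.43 CPM in RSL3 libraries and 40.7 and 34.2 CPM in control libraries (-3.31 ± 0.19, adjusted p = 1.63e-06). Trmt12, Ranbp6, Ddx28 and H2ac24, described above, were the others, and Riox1 and Mars2 have 1 coding exon too. Among Zfp genes with at least 70% of the coding sequence in 1 exon 51.7% of 236 fell, against 30.5% of the 82 others. Of the 10 largest rises 2 had 1 coding exon, Hspa1a and Hspa1b.

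The share that fell also varied with gene length. Of 1442 genes that span 100 kb or more 5.62% fell and 17.8% rose, whereas of 2521 genes of 10 to 20 kb 21.2% fell and 16.5% rose. Messages under 1 kb seldom fell (6.04% of 679), against 21.6% of 3877 messages of 3 to 5 kb. Genes with 4 to 7 copies of the letters ATTTA in the 3′ untranslated region, the core of AU-rich elements, rose in 23.3% of 2184 cases, against 15.9% of the 4044 genes with 0 copies. The number of such copies increases with the length of that region, and the measures were not separated.

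Of the markers of other cell types that could be tested, the 3 of macrophages rose: Cd68 (1.78), Csf1r (1.49) and Cd14 (0.47). Cd14 lost its call in most of the fits without 1 library. Its change was 0.27 without the first RSL3 library and 0.57 and 0.38 without the first and second control library. It did not pass in edgeR with library size only (0.19, adjusted p = 0.356) or with the 4 libraries of RSL3 and control alone (0.46, adjusted p = 0.119). The summed level of that list was 35.8 and 27.3 CPM in RSL3 libraries and 18.5 and 15.4 CPM in control libraries, with the leukocyte gene Ptprc at 0.0526 and 0 CPM in RSL3 libraries and 0 and 0.0442 CPM in control libraries. Of 2 endothelial markers Kdr rose (2.10) and Cdh5 did not pass. The list summed to 4.31 and 3.53 CPM in RSL3 libraries and 1.89 and 1.28 CPM in control libraries, with Emcn and Tek at or under 0.0526 CPM. Of 3 neural markers, which fibroblasts also express in part, Tubb3 rose (0.97) and Nes fell (-0.51), of 2 muscle markers 1 rose, and the 3 epithelial markers tested did not pass. The muscle marker that rose, Acta1 (0.75), did not pass in edgeR with library size only (0.46, adjusted p = 0.144) or in DESeq2 (adjusted p = 0.111). Of 15 tested genes of fibroblast identity 4 rose (26.7%, against 18.3% of all genes), 1 fell (6.67%, against 17.5%) and 10 did not pass. Scaling by library size only put their median at 0.01, against 0.30. The part of other cells in any gene group was not tested.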

How the data were processed

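Poly(A) RNA of 8 fibroblast libraries was sequenced after a stranded kit, per the labels' protocols; no aligner, counter or genome build is named in what was used here. The deposited values are expected counts per gene, not normalized by the authors, and were rounded to whole numbers. Genes passing edgeR's filterByExpr (12618 of 17910) were fitted with edgeR 4.0.16 (R 4.3.3, TMM scaling, quasi-likelihood F test) on 4 group means over 8 libraries, with 4 residual degrees of freedom and a common dispersion of 0.0112 (a coefficient of variation of 10.6% between libraries). The contrast was RSL3 minus control, with Benjamini-Hochberg adjustment over all genes and a threshold of 0.05; the SE is the change divided by the square root of F. A count of 0 was taken to allow 3 counts per library, which covers counting error only.

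The genes and 67 lists were chosen with earlier results of these data known. Genes were named by rule: the 10 largest rises and falls at 5 CPM or more, the 5 largest rises from under 1 CPM, in each list up to 5 members ranked by p, and other members where a family is described; Herpud1 and Nupr1 entered through the promoter search and the genes under 1 CPM in 1 group through that class. Promoters came from RefSeq and gene structures from GENCODE, both on GRCm38, matched by gene ID or symbol. RLE, library-size scaling, no filter, limma-voom (limma 3.58.1), DESeq2 1.42.0, a replicate block and leaving out each library were tried as alternatives, with the share of genes with 1 coding exon added after the data were seen.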

Additional observations from a re-analysis of the deposited data

How the results depend on the processing

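No gene called in the 12618-gene fit was called in the opposite direction under the alternatives run. The number of genes that rose or fell stayed within 1.5 times of 2308 and 2203 with RLE factors (2297 and 2217), no low-count filter (2230 and 2125), limma-voom (2297 and 2184) and DESeq2 (2206 and 1973). Leaving out each of the 8 libraries in turn gave 1716 to 2348 genes up and 1614 to 2171 down, and by 2-fold or more 678 to 851 up and 581 to 744 down. With library size only 1220 rose and 4675 fell, 1215 of them by 2-fold or more, so the split between directions rests on the scaling. With the 4 libraries of RSL3 and control alone 1493 rose and 1438 fell, in a fit with fewer degrees of freedom. The pairs also differed in spread. Over 7062 genes the SD of the log2 difference between libraries 1 and 2 was 0.286 for RSL3 and 0.235 for control. It was 0.14 for SRT1720 and 0.151 for SRT1720 with RSL3. Pairs that lay closer thus entered the shared estimate of the spread, so the p-values of the 8-library fit may be too small. What lowered the number of calls was not tested.

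The labels give replicate numbers but no pairing. Over 7062 genes at 20 CPM or more the difference between libraries 1 and 2 correlated at 0.70 between RSL3 and control, and between -0.40 and -0.02 for the other pairs of groups. A replicate block over all 8 libraries gave 2353 up and 2217 down and kept 97.5% of the calls, and a replicate block on the 4 libraries alone gave 3146 up and 3304 down.

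Without 1 library Evi2 ranged between 0 and 7.82 (0 without the first RSL3 library), and Tkt, a pentose phosphate enzyme called upward, was at -0.002 with library size only; the cause was not tested. Of genes that had not passed, Col1a1 ranged between -0.201 and 0.084 and Myc between -0.24 and 0.17 without 1 library. Of the genes with 1 coding exon 27.2% to 47.4% fell over the alternatives, and of those with 2 or more 10.8% to 36.8%, an alternative chosen after seeing the data. Genes under 1 CPM rest on few counts, and 2 libraries a group with no known culture behind each limit every value.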
